A study of Homo sapiens with 42 samples.

Results

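Human myeloma cells were followed from the first to the second day of BMI1 knockdown. RPMI-8226 is an established human multiple myeloma line, a cancer of plasma cells, and the cells used here carried a stably integrated short hairpin RNA (shRNA) against BMI1 that doxycycline switches on. The arrays were chosen by their titles: 3 taken after 48 h with the hairpin on were set against 3 taken after 24 h, 6 of the 42 arrays of the series, and 3 arrays at 32 h gave the point between. All of these cultures received doxycycline at 100 ng/ml, and cells of every group were grown in medium with 1% fetal bovine serum. Backgrounds came from the same BMI1-shRNA line without doxycycline at 24, 32 and 48 h and from a line with an inducible control shRNA given doxycycline for 24 and 48 h, again with 3 arrays each. The arrays were Affymetrix U133 Plus 2 gene expression arrays, on which a probe set is a group of short probes read as 1 signal. The labels name a single line for each hairpin and number the arrays without saying whether they came from separate cultures, and p-values therefore cover only array-to-array spread, which may be technical. Whether either line was a clone is not given in the sources used here.

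BMI1 is a subunit of Polycomb repressive complex 1 (PRC1), which marks histone H2A with ubiquitin and keeps developmental genes and the CDKN2A locus silent. It is known as a factor that lets blood stem cells and B-lineage tumours go on dividing. The question here is how BMI1-depleted cells move on after the first day, since the hairpin was on in both groups.

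The knockdown was already in place at 24 h. The BMI1 probe set also detects COMMD3-BMI1, a readthrough transcript, by its annotation. It read 168.6, 218.1 and 234.0 on the 24 h arrays, 182.7, 148.4 and 168.8 at 32 h, and 188.0, 149.0 and 139.8 at 48 h. Without doxycycline the mean signal was 926.9 ± 154 (SD, n = 3) at 24 h and 1021 ± 125 at 48 h. In the dosed cells the lowest 24 h array lay below the highest 48 h array, so the groups overlapped. The change from 24 to 48 h was -0.37 ± 0.10 on the log2 scale (± standard error here and below), and it missed the threshold (limma adjusted p = 0.0604 over 35232 probe sets).

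The 9 dosed arrays of the BMI1-shRNA line were alike in quality. Their median signals lay between 17.7 and 21.7 and their correlations with arrays of their own group between 0.980 and 0.984. The ratio of 3' to 5' signal of GAPDH, which rises as RNA degrades, was 0.919 to 0.975 at 24 h and 0.927 to 0.942 at 48 h. Plasma cell genes were bright, with SDC1 (CD138), the surface proteoglycan that defines plasma cells, at a mean of 741.5 at 24 h and IRF4 at 1388. Of 11 B cell, 4 T cell, 4 monocyte, 1 erythroid, 3 fibroblast and 5 epithelial markers limma called 0, beside 2.15% of all genes. In lists this small 0 is near that share. An unadjusted p under 0.05 was reached by 1 epithelial marker. The summed signal of the 4 T cell markers was 72.5 to 118.5 at 24 h and 73.9 to 144.8 at 48 h, that of the monocyte markers 49.3 to 78.0 and 50.2 to 73.0, and that of the B cell markers 702.7 to 807.8 and 759.3 to 868.4. Epithelial markers summed to 5302 to 6288 and 5748 to 6133, mostly EPCAM and KRT18, with mean signals over all 42 arrays of 3251 and 1917, and the fibroblast markers read 131.5 to 149.8 and 129.9 to 171.4.

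From 24 to 48 h with the hairpin on, more genes fell than rose, and most shifts were small. A gene is said to have risen or fallen where limma's Benjamini-Hochberg adjusted p over 14704 genes was under 0.05. By that rule 316 genes changed (2.15% of those tested): 233 fell (1.58%) and 83 rose (0.564%). The median size of a called change was 0.35 on the log2 scale, 36 genes changed at least 1.5-fold and 8 at least 2-fold. At an unadjusted p under 0.05 there were 1851 of the 14704 genes, which is the background for every list count given at that level. The 48 h arrays all lay below the 24 h arrays for 230 of the 233 falls and all above for 82 of the 83 rises, where 2581 genes (17.6%) did not overlap in all. Counts of called genes depended on single arrays: without 48 h array 1 there were 180, without 24 h array 2 there were 193, and without 24 h array 3 there were 200. Fold changes are on the scale of log2(signal + 5.4) and understate the change of dim genes.

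One set of genes went on falling from a level that was already low at 24 h. ADA encodes adenosine deaminase, which removes adenosine and deoxyadenosine. It read 333.8, 399.6 and 329.2 at 24 h and 243.6, 210.1 and 211.3 at 48 h, against means of 677.7 and 706.3 without doxycycline. All 48 h arrays lay below all 24 h arrays, a fall of 1.58-fold (-0.66 ± 0.08, limma adjusted p = 4.12e-07). SFXN1, a mitochondrial serine carrier, read 187.7, 165.4 and 172.7 at 24 h and 105.2, 108.5 and 115.5 at 48 h, against means of 521.1 and 599.1 without doxycycline. Its groups did not overlap either (-0.65 ± 0.08, limma adjusted p = 4.78e-07). IDH1, the cytosolic NADPH-producing isocitrate dehydrogenase, read 160.9, 182.6 and 183.8 at 24 h and 117.1, 121.6 and 126.1 at 48 h (-0.51 ± 0.11, limma adjusted p = 0.00463), against means of 844.1 and 833.9 without doxycycline. The calls of SFXN1 and IDH1 depended on how probe sets were combined. Averaged over the gene's probe sets the change was -0.15 for IDH1 (limma adjusted p = 0.516) and -0.34 for SFXN1 (0.0528). Each gene had 3 retained probe sets, and 2 of them were below 0. The highest was at 0.34 for IDH1 and at 0.26 for SFXN1. The change in IDH1 did not differ at the threshold from that in either background.

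Other genes of this kind followed the same course. CARNMT1, which methylates carnosine, read 398.5, 403.6 and 475.2 at 24 h, 318.8, 354.0 and 334.7 at 32 h, and 261.9, 246.1 and 290.9 at 48 h, with no overlap at any step. API5, an inhibitor of apoptosis, had means of 581.9, 447.0 and 400.9 at 24, 32 and 48 h (-0.53 ± 0.07 over the interval) and 1060 at 24 h without doxycycline. MAPK6, an atypical MAP kinase, and DONSON, a replication fork protein, had the smallest adjusted p-values and were singled out after their values were seen. MAPK6 fell from a mean of 2060 to 1335 (-0.62 ± 0.06, limma adjusted p = 6.29e-09) and DONSON from 700.7 to 473.5 (-0.56 ± 0.05, limma adjusted p = 6.88e-09). EVI5, a GTPase-activating protein that was low at 24 h too, had means of 31.3, 16.5 and 25.9 at 24, 32 and 48 h and did not pass (-0.23 ± 0.20, limma adjusted p = 0.693).

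**Figure D1:**
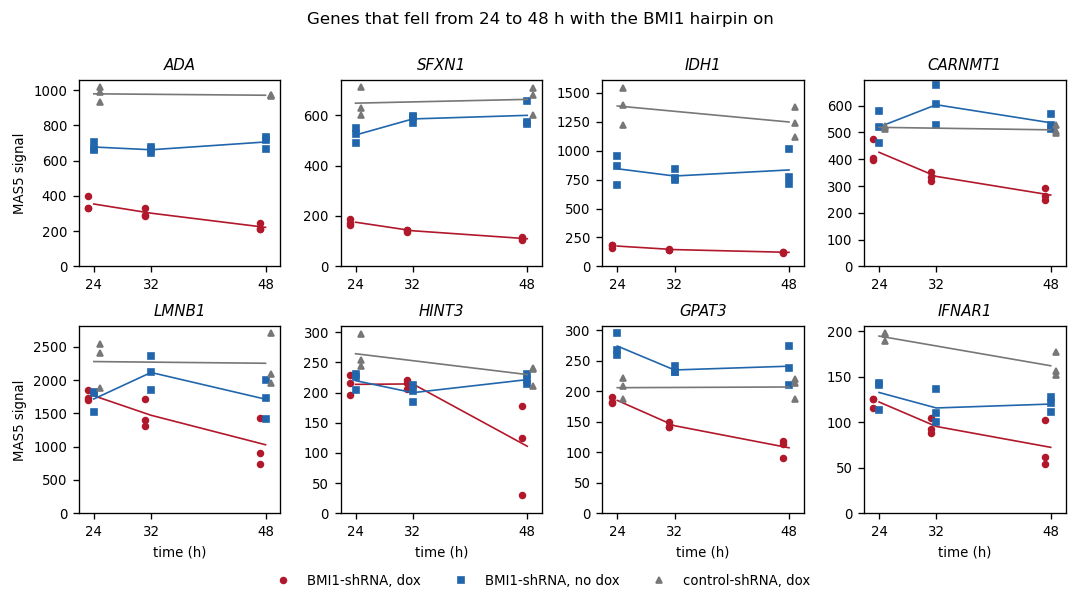
MAS5 signal (vertical axes, linear, from 0) against hours (horizontal axes) for 8 genes that fell, with a point for each array: red circles for the BMI1-shRNA line with doxycycline, blue squares for that line without it, grey triangles for the control-shRNA line with doxycycline, and lines joining group means. ADA, SFXN1 and IDH1 start low at 24 h and go lower, while HINT3 leaves the 24 h level only at 48 h, where its arrays read 124.4, 178.3 and 30.5.

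Other deep falls among brighter genes (mean signal at or above 129.4, the median gene) began from various levels at 24 h. LMNB1, the B-type lamin of the nuclear envelope, read 1734, 1704 and 1859 at 24 h and 902.8, 1438 and 747.7 at 48 h, against means of 1717 and 1714 without doxycycline. The 48 h arrays spread widely (-0.83 ± 0.18, limma adjusted p = 0.00481), and without 48 h array 3 the adjusted p was 0.0799. HINT3, a histidine triad nucleotide-binding protein, read 229.8, 215.1 and 196.0 at 24 h and 124.4, 178.3 and 30.5 at 48 h, against an undosed mean of 219.8 at 24 h. Its fall (-1.20 ± 0.26, limma adjusted p = 0.00446) was largest in 48 h array 3; without that array it was -0.50 and still called (0.0177). GPAT3, an acyltransferase of triglyceride synthesis, read 181.4, 190.9 and 182.3 at 24 h and 113.9, 117.9 and 90.0 at 48 h. The change was -0.76 ± 0.12 (limma adjusted p = 0.000125), and the undosed mean at 24 h was 273.9.

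Surface and signalling genes were among them. IFNAR1, a subunit of the type I interferon receptor, read 125.7, 125.2 and 116.2 at 24 h and 54.0, 102.1 and 61.4 at 48 h (-0.76 ± 0.15), and the mean of its probe sets fell by 0.31 on the log2 scale. SDC2, a heparan sulfate proteoglycan, read 380.9, 377.2 and 377.4 at 24 h and 200.9, 240.6 and 228.8 at 48 h (-0.75 ± 0.17), and its adjusted p was 0.0635 without 48 h array 1. RNF144B, an E3 ubiquitin ligase, fell from 181.0, 150.8 and 153.3 to 99.9, 93.1 and 106.9 (-0.66 ± 0.16). Its call was lost without 48 h arrays 1 or 2 or 24 h array 1 (adjusted p up to 0.0913) and with the mean of its probe sets (-0.31, 0.584).

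Dim genes, below the median signal, made up 12 of the falls and 12 of the rises. ID3, an inhibitor of bHLH transcription factors, read 84.4, 105.3 and 100.2 at 24 h and 39.8, 50.5 and 41.1 at 48 h, without overlap (-1.05 ± 0.15, limma adjusted p = 1.54e-05). It kept its call under each alternative setting and with each array left out. CCDC40, GDAP1 and SPN were the other named dim genes that fell (-1.16, -0.80 and -0.74), and SYT5, RBFADN, GPR15LG and RNF130 the dim genes with the highest rises (1.67, 1.53, 1.33 and 1.15). CCDC40 and RNF130 lost the call when any array other than 48 h array 3 was left out (adjusted p up to 0.367 and 0.226), SPN without 48 h arrays 1 or 3 or 24 h arrays 1 or 2 (up to 0.332), GPR15LG without any 48 h array or 24 h array 1 (up to 0.316) and RBFADN without 48 h array 1 or 24 h array 3 (up to 0.0921). With the mean of its probe sets RNF130 turned to -0.13, and GDAP1 was at -0.35 and not called (0.35). SYT5 had a mean of 1.67 at 24 h, so its rise is one from signals near 0.

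Metallothioneins, small cysteine-rich proteins that bind zinc and copper and are induced by metals through the factor MTF1, held several falls. The family was listed after its values had been seen, so its count is a description. Of 9 tested members 5 fell and 0 rose, beside 1.58% falls among all genes, and the median change was -0.53. The promoters of 3 of the members that fell are printed to show the element through which metals act on these genes. Promoters of members that did not pass were not looked at singly, so the element is not shown to mark those that fell. Capitals mark TGCACNC or TGCGCNC, the core of the metal response element, on either strand, in the 250 bases before the RefSeq start (GRCh38.p14, plus strand, chr16:56608334-56608583 for MT2A, chr16:56669564-56669813 for MT1H and chr16:56682220-56682469 for MT1X).
MT2A: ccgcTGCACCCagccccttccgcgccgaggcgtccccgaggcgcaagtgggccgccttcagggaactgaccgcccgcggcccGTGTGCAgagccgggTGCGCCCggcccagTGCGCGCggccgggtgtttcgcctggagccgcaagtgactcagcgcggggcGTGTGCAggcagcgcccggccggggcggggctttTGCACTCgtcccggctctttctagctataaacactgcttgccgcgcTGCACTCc
MT1H: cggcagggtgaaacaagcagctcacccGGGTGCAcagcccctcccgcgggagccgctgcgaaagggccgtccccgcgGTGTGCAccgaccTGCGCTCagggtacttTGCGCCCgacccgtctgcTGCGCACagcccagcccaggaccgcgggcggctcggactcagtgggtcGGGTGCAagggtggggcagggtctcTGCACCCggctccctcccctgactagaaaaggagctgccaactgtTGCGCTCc
MT1X: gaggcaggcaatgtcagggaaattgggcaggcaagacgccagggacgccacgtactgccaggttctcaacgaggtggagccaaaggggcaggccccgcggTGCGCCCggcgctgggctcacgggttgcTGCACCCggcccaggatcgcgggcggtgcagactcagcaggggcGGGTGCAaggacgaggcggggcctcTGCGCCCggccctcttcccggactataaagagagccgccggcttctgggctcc
These windows held 7, 8 and 4 matches. Of all 27305 RefSeq promoters in the table, 24.7% held at least 1 match and 0.366% held 4 or more. Of 11732 promoters of tested genes the shares were 31.9% and 0.511%. Of 195 promoters of genes that fell, these windows among them, they were 34.4% and 2.05%. The last share is 4 promoters, and 3 of those are the windows printed here, which were picked after their values were seen. It therefore shows no excess among the other genes that fell. A match is only a description of the letters.

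MT2A, the most widely expressed member, read 921.6, 975.3 and 1022 at 24 h, 835.4, 832.1 and 831.8 at 32 h, and 596.4, 586.6 and 602.7 at 48 h. The 3 times did not overlap, and the fall was 1.63-fold (-0.70 ± 0.08, limma adjusted p = 2.33e-07). MT1E read 291.8, 315.7 and 303.5 at 24 h and 161.7, 153.7 and 188.4 at 48 h (-0.84 ± 0.12, limma adjusted p = 1.54e-05). MT1H fell from 627.8, 588.1 and 708.0 to 360.7, 425.7 and 427.0 (-0.66 ± 0.11). MT1X fell by 0.53 ± 0.09 on the log2 scale, with a highest 48 h array of 747.6 below a lowest 24 h array of 842.6. MT1HL1 fell by 0.68 ± 0.17 but lost its call without 48 h arrays 1 or 2 or 24 h arrays 1 or 3 (adjusted p up to 0.137). MT1G (-0.38, limma adjusted p = 0.153), MT1F (0.09, 0.918), MT3 (-0.02, 0.993) and MT4 (-0.04, 0.989) did not pass. The probe sets of MT2A, MT1E, MT1H, MT1X and MT1HL1 are of a kind that can bind transcripts of near-identical genes, so which family member moved is uncertain.

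The fall was partly present with the control hairpin. MT2A went from a mean of 778.1 to 583.3 there (-0.41, limma adjusted p = 0.00435) and MT1H changed by -0.44 (limma adjusted p = 0.0946). Without doxycycline the changes in the BMI1-shRNA line were -0.09 for MT2A, 0.18 for MT1E and 0.08 for MT1H. The test of the difference between dosed and undosed changes passed for MT1E (-1.02 ± 0.17, limma adjusted p = 0.000723), MT2A (-0.61 ± 0.11, 0.00259) and MT1H (-0.73 ± 0.16, 0.0182). The test against the control-shRNA line with doxycycline did not pass for MT2A (-0.29 ± 0.11, limma adjusted p = 0.495), MT1E (-0.61 ± 0.17, 0.163) or MT1H (-0.22 ± 0.16, 0.865).

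**Figure D2:**
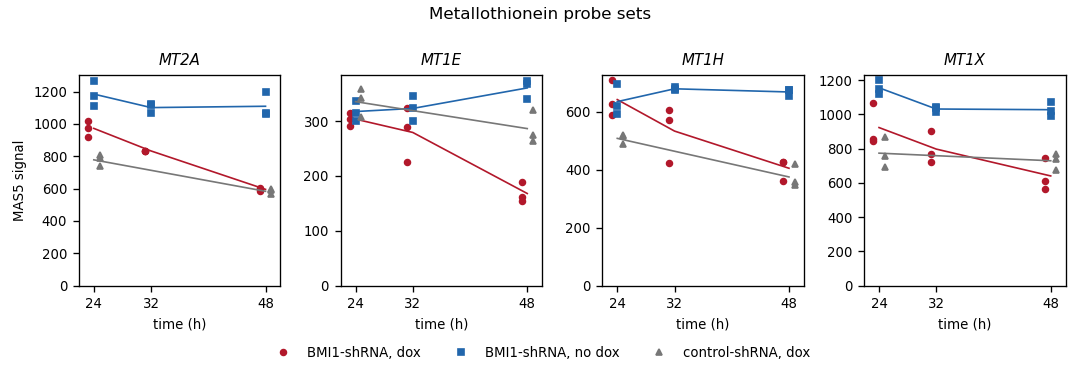
MAS5 signal (vertical axes, linear, from 0) against hours (horizontal axes) for MT2A, MT1E, MT1H and MT1X, with a point for each array, symbols by line and doxycycline as in the key, and lines joining group means. The dosed BMI1-shRNA arrays of MT2A step down from 921.6 to 1022 at 24 h to 586.6 to 602.7 at 48 h, and the dosed control arrays of MT2A and MT1H go down too.

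Among the brighter genes the highest rise was that of SAT1. SAT1, the rate-limiting enzyme of polyamine breakdown, read 1253, 1327 and 1256 at 24 h and 1910, 1946 and 1881 at 48 h (0.58 ± 0.06, limma adjusted p = 1.04e-07). It also rose without doxycycline (0.36, limma adjusted p = 0.0018) and with the control hairpin (0.45, 4.11e-05). STS, steroid sulfatase, read 495.9, 506.2 and 494.9 at 24 h and 678.7, 661.7 and 646.6 at 48 h (0.40 ± 0.06, limma adjusted p = 5.75e-05). With the control hairpin it fell (-0.47, limma adjusted p = 2.19e-05), and both differences passed: 0.55 ± 0.09 against no doxycycline (0.000656) and 0.88 ± 0.09 against the control hairpin (7.12e-08).

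ENC1, an actin-binding kelch protein, read 128.5, 127.1 and 121.9 at 24 h and 210.6, 172.6 and 155.9 at 48 h (0.49 ± 0.10, limma adjusted p = 0.00179). The rise came after 32 h, where the arrays read 145.5, 124.4 and 105.2, and its adjusted p without 48 h array 1 was 0.0506. ABCG1, a cholesterol exporter, read 142.2, 144.6 and 144.4 at 24 h and 202.5, 201.6 and 224.4 at 48 h (0.53 ± 0.12, limma adjusted p = 0.00862, and 0.0539 without 48 h array 3). It also rose without doxycycline (0.50) and with the control hairpin (0.64). IFITM1, an interferon-induced antiviral membrane protein, rose by 0.54 ± 0.12 and by 0.57 without doxycycline (limma adjusted p = 0.015), and the dosed call was lost without 48 h array 3 or 24 h array 3 (up to 0.0651).

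CAPN2, a calpain protease, CD109, a surface glycoprotein, and IQSEC1, an exchange factor for ARF GTPases, rose by 0.50, 0.50 and 0.48. Averaged over probe sets their changes were 0.10, 0.07 and 0.23, and none was called (limma adjusted p = 0.94, 0.926 and 0.46). CD109 and IQSEC1 also lost the call without 48 h array 1 or 24 h array 2, among others (up to 0.159 and 0.0998). RNA45SN5, a ribosomal RNA precursor, rose by 0.55 ± 0.13 and lost the call without 48 h arrays 1 or 2 or 24 h array 1 (up to 0.104) and with the mean of its probe sets (0.40, 0.0893).

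**Figure D3:**
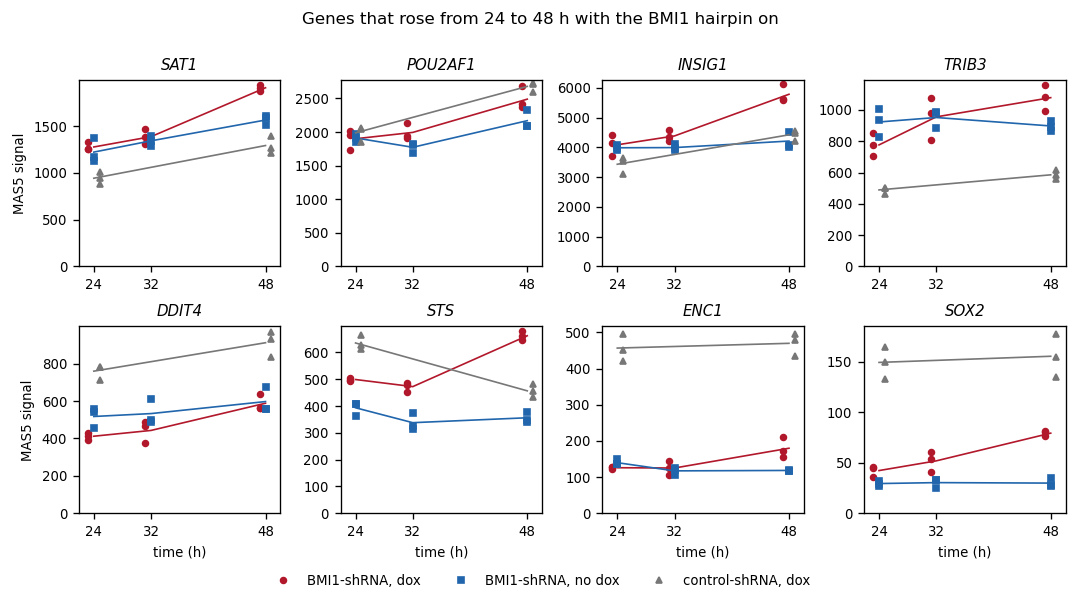
MAS5 signal (vertical axes, linear, from 0) against hours (horizontal axes) for 8 genes that rose, with a point for each array, symbols by line and doxycycline as in the key, and lines joining group means. SAT1, POU2AF1 and INSIG1 climb with the control hairpin too, while STS climbs from 494.9 to 506.2 at 24 h to 646.6 to 678.7 at 48 h with the BMI1 hairpin on and falls with the control hairpin.

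Among Polycomb subunits and developmental genes that Polycomb is known to silence, AUTS2 and SOX2 were called. Of 22 tested members of PRC1 and its variants 1 rose and 0 fell, against 2.15% of all genes called in either direction: AUTS2, which brings a variant PRC1 to active genes, from a mean of 674.7 to 835.1 (0.30 ± 0.07, limma adjusted p = 0.0148). Its call was lost without 48 h arrays 1 or 2 or 24 h arrays 2 or 3 (up to 0.115) and with the mean of its probe sets (0.769). In limma 0 of 12 PRC2 members and 0 of 17 HOX genes passed (1 of each at an unadjusted p under 0.05), with median changes of 0.05 and 0.08 beside 0.01 over all genes. Without doxycycline these medians were 0.07 and 0.23, and with the control hairpin -0.04 and -0.12. With 2.15% of all genes called, 0 in lists this small is near that share. Of 39 listed HOX genes 17 were tested, and their signals were low, summing to 603.7 to 666.3 at 24 h. HOXD9 (-1.06 ± 0.48, limma adjusted p = 0.334) and HOXC5 (-0.99 ± 0.72, 0.615) had the largest differences of the HOX genes and did not pass. Among 17 other developmental regulators tested, of 32 listed, 1 rose, beside 0.564% rises over all genes. LHX2 did not pass (1.05 ± 0.46, 0.303). The gene that rose was SOX2, a stem cell transcription factor, which read 36.0, 45.1 and 45.7 at 24 h, 54.0, 60.7 and 40.9 at 32 h, and 80.3, 81.6 and 76.0 at 48 h. Undosed cells had means of 29.4 and 29.9, and the rise of 1.78-fold (0.84 ± 0.17, limma adjusted p = 0.00392) was 0.54 with the mean of its probe sets (0.13). The change in SOX2 did not differ at the threshold from that in either background. CDKN2A, the p16 and ARF locus held down by BMI1 in many cells, was bright and had means of 2857 and 3166 (0.15 ± 0.07, limma adjusted p = 0.324).

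Few cell cycle genes were called. Among 43 genes of G1/S and DNA replication 2 fell and 0 rose, beside 1.58% falls and 0.564% rises over all genes: PRIM1, the catalytic subunit of primase, and RFC3, a clamp loader subunit. Of the 43, 30 were below 0, beside 47.8% of all genes, and 13 were at an unadjusted p under 0.05, beside 1851 of 14704. The list's median was -0.08, and it was -0.09 both without doxycycline and with the control hairpin. PRIM1 read 863.4, 870.9 and 853.5 at 24 h and 673.0, 713.0 and 602.4 at 48 h, well apart (-0.38 ± 0.07, limma adjusted p = 0.000342). RFC3 fell by 0.19 on the log2 scale and lost its call without 48 h arrays 1 or 3 or any 24 h array (up to 0.0981) and with the mean of its probe sets (-0.08, 0.604). CCNE2, the G1/S cyclin E2, read 220.0, 184.0 and 223.0 at 24 h and 130.0, 166.6 and 143.8 at 48 h (-0.50 ± 0.10, limma adjusted p = 0.00148), the only call among 15 cyclins, CDKs and RB family genes. CCNE1 changed by -0.30 (limma adjusted p = 0.211), CCND2 by 0.20 (0.227) and PCNA by -0.08 (0.738), and none of them passed.

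Of 44 G2/M genes 2 fell and 1 rose, beside 1.58% falls and 0.564% rises over all genes. AURKA, the mitotic kinase, fell by 0.31 ± 0.06 on the log2 scale (limma adjusted p = 0.00233), and KIF4A, a chromosome kinesin, by 0.25 ± 0.07 (0.0398, and up to 0.217 without 48 h arrays 1 or 2 or 24 h arrays 2 or 3). CKS2, a CDK subunit, rose by 0.22 ± 0.06 (limma adjusted p = 0.0213, and up to 0.128 without 48 h array 2 or 24 h arrays 2 or 3). CDKN3, a phosphatase listed with the CDK inhibitors, was the 1 of 7 to fall (-0.34 ± 0.06, limma adjusted p = 0.000312). Of 11 replication-dependent histone genes 0 passed in limma, with 1 at an unadjusted p under 0.05.

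The BCL2 family held no call at the main setting. In limma 0 of 11 pro-apoptotic and 0 of 6 anti-apoptotic members were called, beside 2.15% of all genes. At an unadjusted p under 0.05 there were 5 and 1, beside 1851 of all 14704 genes. BCL2L11 (BIM), the activator of BAX and BAK, had means of 898.2, 1012 and 1083 at 24, 32 and 48 h and 728.4 and 751.0 without doxycycline, with a change of 0.27 ± 0.08 that missed the threshold (limma adjusted p = 0.0626). It passed with the mean of its probe sets (0.31, 0.0427), with quantile normalization (0.29, 0.0377) and with the 75th percentile filter (0.0365). Of 24 p53 targets FAS, the death receptor, fell (-0.41 ± 0.10, limma adjusted p = 0.026), beside 1.58% falls over all genes. Its call was lost without 48 h arrays 1 or 2 or 24 h arrays 2 or 3 (up to 0.207), and it was kept with the mean of its probe sets (-0.35, 0.00252). Of 28 MYC and nucleolar targets 0 passed (5 at an unadjusted p under 0.05), and MYC itself changed by 0.24 ± 0.09 (limma adjusted p = 0.224). All 22 cytosolic ribosomal protein genes tested were above 0 with a median of 0.18, and 0 passed in limma (1 at an unadjusted p under 0.05). Their summed signal was 188932 to 249824 at 24 h and 238563 to 277035 at 48 h, which overlap.

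Some stress genes rose. ATF4 drives amino acid transport and synthesis when amino acids run short or the endoplasmic reticulum (ER) is stressed. Of 32 genes of that response 4 rose and 1 fell, beside 0.564% rises and 1.58% falls over all genes. The backgrounds held such rises too: 4 of the 32 were called upward with the control hairpin and 2 without doxycycline, and the list's median was 0.10 with the BMI1 hairpin on, 0.20 with the control hairpin and 0.11 without doxycycline. TRIB3, a pseudokinase induced by ATF4, read 849.6, 706.9 and 772.7 at 24 h and 993.9, 1082 and 1159 at 48 h (0.47 ± 0.09, limma adjusted p = 0.00104), beside 0.26 with the control hairpin and -0.04 without doxycycline, neither called. DDIT4, an inhibitor of mTORC1, read 412.7, 431.4 and 392.3 at 24 h and 561.6, 565.4 and 638.7 at 48 h (0.51 ± 0.11, limma adjusted p = 0.0046), beside 0.26 and 0.20, neither called. Neither gene's change differed at the threshold from that in either background. SLC38A2, a glutamine carrier, rose by 0.32, and by 0.35 without doxycycline. ATF4 itself rose by 0.37 ± 0.10 but was near the threshold (limma adjusted p = 0.0472) and passed only when 24 h array 2 was the array left out (otherwise up to 0.313), and its adjusted p with averaged probe sets was 0.062. SLC7A1, an arginine carrier, fell by 0.18. SLC7A11, the cystine carrier (0.21, limma adjusted p = 0.571), and ASNS, asparagine synthetase (0.11, 0.651), did not pass. Of 17 aminoacyl-tRNA synthetases 0 passed in limma, with 4 at an unadjusted p under 0.05.

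Of 33 genes of the unfolded protein response and ER folding 3 rose and 1 fell, beside 0.564% and 1.58% over all genes. HERPUD1, a component of ER-associated degradation, rose by 0.29 ± 0.07, DNAJB9, an ER co-chaperone, by 0.26 ± 0.06, and ERN1, the ER stress sensor IRE1, by 0.23 ± 0.06. All 3 lost the call without some arrays: HERPUD1 without 48 h arrays 1 or 2 or 24 h array 2 (up to 0.118), DNAJB9 without 48 h array 2 or 24 h arrays 1 or 3 (up to 0.0945), and ERN1 when any array other than 48 h array 2 was left out (up to 0.209). None of the 3 was called with the mean of its probe sets (0.556, 0.0739 and 0.389). The list's median was 0.08, beside 0.01 without doxycycline, where 0 were called, and 0.02 with the control hairpin, where ERN1 was called upward. PDIA4, a protein disulfide isomerase, fell from 1012, 1120 and 1119 to 844.9, 887.5 and 720.9 (-0.41 ± 0.08, limma adjusted p = 0.00226), against means of 1808 and 1659 without doxycycline. Among 16 heat shock genes HSPH1 fell by 0.29 ± 0.05 and FKBP4 by 0.31 ± 0.08, and FKBP4 lost the call when any array other than 48 h array 2 was left out (up to 0.159) and with the mean of its probe sets (0.154).

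Lipid genes gave 1 call in each list, both rises, beside 0.564% rises over all genes. INSIG1, which holds the SREBP complex in the ER, read 4141, 4414 and 3698 at 24 h and 5599, 5623 and 6123 at 48 h (0.50 ± 0.07, limma adjusted p = 3.73e-06), the only call among 20 cholesterol genes. It rose with the control hairpin as well (0.37, limma adjusted p = 0.00176). SREBF1, the lipogenic transcription factor, was the 1 of 10 fatty acid genes to rise (0.44 ± 0.11, limma adjusted p = 0.0233), and it lost the call without 48 h arrays 1 or 2 or 24 h arrays 1 or 3 (up to 0.139) and with the mean of its probe sets (0.52, 0.064). HMGCS1, an enzyme of cholesterol synthesis, changed by -0.36 and did not pass (limma adjusted p = 0.138).

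Genes that passed in the lists of TCA cycle and NADPH enzymes, oxidative phosphorylation and mitochondrial translation all fell. So did 233 of the 316 called genes (1.58% of all genes). In the first list 2 of 20 passed, the cytosolic IDH1 and IDH3A, a TCA cycle subunit (-0.37 ± 0.06). ATP5PB of the ATP synthase (-0.33 ± 0.09) was the 1 call of 40 oxidative phosphorylation genes. MRPL10 (-0.43 ± 0.08), MRPL1 (-0.36 ± 0.06) and GFM1 (-0.34 ± 0.07) were those among 34 genes of mitochondrial translation. MRPL10, a mitochondrial ribosomal protein, read 451.2, 481.9 and 451.6 at 24 h and 330.5, 342.4 and 352.7 at 48 h, apart from each other and below the undosed means of 893.3 and 852.2. With the mean of its probe sets IDH1 was at -0.15 (limma adjusted p = 0.516), IDH3A at -0.44 (0.0842), GFM1, an elongation factor, at -0.08 (0.777) and ATP5PB at -0.17 (0.605), and none was called. ATP5PB also lost its call without 48 h arrays 1 or 2 or 24 h arrays 1 or 2 (up to 0.205). The median change was -0.03, 0.02 and -0.08 over the 3 lists. It was -0.02, -0.03 and -0.08 without doxycycline and -0.03, 0.005 and -0.08 with the control hairpin.

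Plasma cell genes gave the largest share of rises among the listed sets. Of 23 tested 5 rose (0.564% of all genes did) and 0 fell, and the median was 0.15. With the control hairpin 4 of the 23 were called upward, with a median of 0.08, and without doxycycline 1 was called upward and 1 downward, with a median of 0.05. POU2AF1, the B cell coactivator OBF1, read 2010, 1954 and 1734 at 24 h and 2411, 2686 and 2369 at 48 h (0.39 ± 0.06, limma adjusted p = 7.46e-05), CAV1, caveolin, rose by 0.33 ± 0.05, and CD38, a surface ectoenzyme, read 488.6, 500.7 and 509.0 and then 695.2, 649.5 and 565.7. IRF4, which plasma cells and myeloma depend on, rose by 0.23 ± 0.06, and CD28, a costimulatory receptor found on myeloma cells, by 0.25 ± 0.07. POU2AF1 (0.43), CAV1 (0.53) and IRF4 (0.34) also rose with the control hairpin (limma adjusted p = 6.56e-05, 5.74e-08 and 0.000562). CD38 kept its call only when 48 h array 3 was the array left out (otherwise up to 0.188). CD28 lost its call without 48 h arrays 2 or 3 or 24 h arrays 1 or 2 (up to 0.247), and IRF4 without 48 h arrays 1 or 2 or 24 h array 1 (up to 0.11). With the mean of its probe sets POU2AF1 was at 0.26 and not called (limma adjusted p = 0.507).

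Calls in the other listed sets stand beside 0.564% rises and 1.58% falls over all genes. Of 33 interferon-stimulated genes IFITM1 and ISG15 (0.31 ± 0.08) rose, with a median of 0.19, and IFIT1 did not pass (0.25 ± 0.29, limma adjusted p = 0.797). The list's median was 0.13 without doxycycline and 0.04 with the control hairpin. ISG15 lost its call without 48 h arrays 1 or 2 or 24 h arrays 2 or 3 (up to 0.122). Of 38 glycolysis and hypoxia genes TXNIP, a glucose-induced inhibitor of thioredoxin, rose (0.24 ± 0.05) and P4HA2, a collagen prolyl hydroxylase, fell (-0.33 ± 0.08, lost without 48 h arrays 1 or 3 or 24 h arrays 1 or 2, up to 0.108). TXNIP also rose without doxycycline (0.24) and P4HA2 fell with the control hairpin (-0.39). CD83, a surface marker of activation, fell among 22 NF-kB targets (-0.35 ± 0.10, lost without 48 h arrays 1 or 2 or 24 h arrays 2 or 3, up to 0.412, and with averaged probe sets, 0.0508), and PSMC6 among 28 proteasome genes (-0.21, lost when any array other than 24 h array 1 was left out, up to 0.204). In limma 0 of 31 autophagy and lysosome genes and 0 of 26 immediate early genes passed, with 6 and 5 at an unadjusted p under 0.05. IL34, a cytokine gene, was dim, with means of 7.33 and 24.3, and did not pass (limma adjusted p = 0.212).

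**Figure D4:**
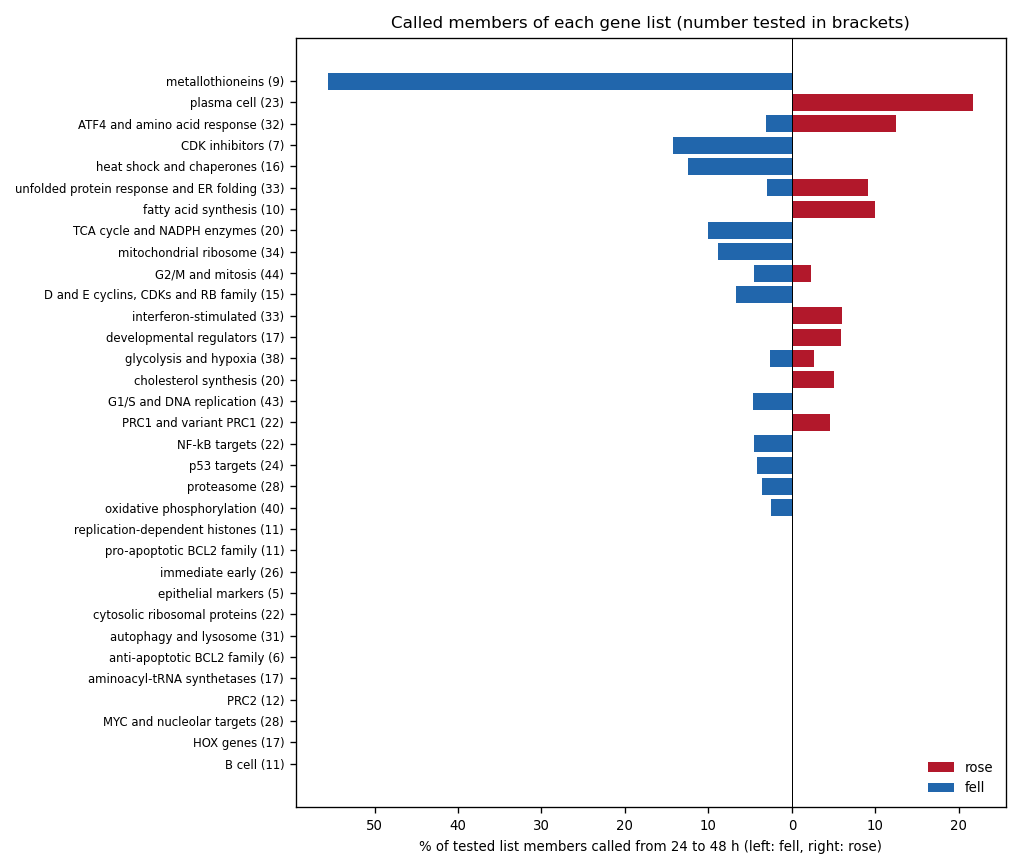
Share of the tested members of each gene list that fell (blue, to the left) or rose (red, to the right) from 24 to 48 h with the BMI1 hairpin on, in percent, with the number tested in brackets. Lists with at least 5 tested members are drawn. Plasma cell genes have the most rises (5 of 23), and the metallothioneins (5 of 9 fell) were listed after their values were seen.

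The 32 h arrays gave the point between. The mean at 32 h lay between those at 24 and 48 h for 219 of the 233 falls (94.0%) and 73 of the 83 rises (88.0%). The median gene had covered 0.356 of its fall (quartiles 0.218 and 0.503) and 0.288 of its rise (0.176 and 0.508). The genes were chosen for the gap between the 24 and 48 h means, which by itself favours a 32 h mean between them. The share over all genes was not computed, and the comparisons share arrays, so these are descriptions. Set directly against 24 h, 32 h gave 3 called genes (0.0204%), all falls: ITSN2, an endocytic scaffold (-0.38, limma adjusted p = 0.0114), API5 (-0.38, 0.0418) and PCBD1, a pterin dehydratase (-0.35, 0.0418). Without 32 h arrays 1 or 2 or 24 h array 2 none passed, and 824 genes were at an unadjusted p under 0.05. From 32 to 48 h 87 genes were called (0.592%), 24 up (0.163%) and 63 down (0.428%), with HINT3, MT1E and VMA21, an assembly factor of the proton pump of lysosomes, the deepest, and RNA45SN5, ENC1 and STS the highest. Without 48 h array 1 there were 50 and without 32 h array 3 there were 38.

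Cultures without the BMI1 hairpin on also changed in this day. Without doxycycline 140 genes were called from 24 to 48 h (0.952%), 78 up (0.53%) and 62 down (0.422%), and with the control hairpin 47 (0.32%), 36 up (0.245%) and 11 down (0.0748%). Leaving out any 1 of the 6 arrays lowered the first count to between 40 and 78 and the second to between 25 and 31. LANCL2, DDX5 and SDC1 fell furthest and CAMKK2, DECR2 and SH2D3C rose furthest without doxycycline. STS, RRP9 and DNLZ fell furthest and LAMB3, SH2D3C and ABCG1 rose furthest with the control hairpin. Many of the called genes had the same sign in the backgrounds. Of the 83 rises 65 (78.3%) had the same sign without doxycycline, where 57.7% of all genes were above 0, and 70 (84.3%) with the control hairpin, where 53.1% were. Of the 83 rises 11 were called upward without doxycycline and 14 with the control hairpin. Of the 233 falls 157 (67.4%) were below 0 without doxycycline, where 42.3% of all genes were, and 171 (73.4%) with the control hairpin, where 46.9% were, and 4 and 3 were called downward. The falls had a median of -0.35 with the BMI1 hairpin on, -0.05 without doxycycline and -0.07 with the control hairpin. The rises had medians of 0.34, 0.14 and 0.16. Over all 14704 genes the Pearson correlation of the dosed change with the undosed one was 0.085 and with that of the control-shRNA line 0.066. These are across genes, which are not independent replicates.

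**Figure D5:**
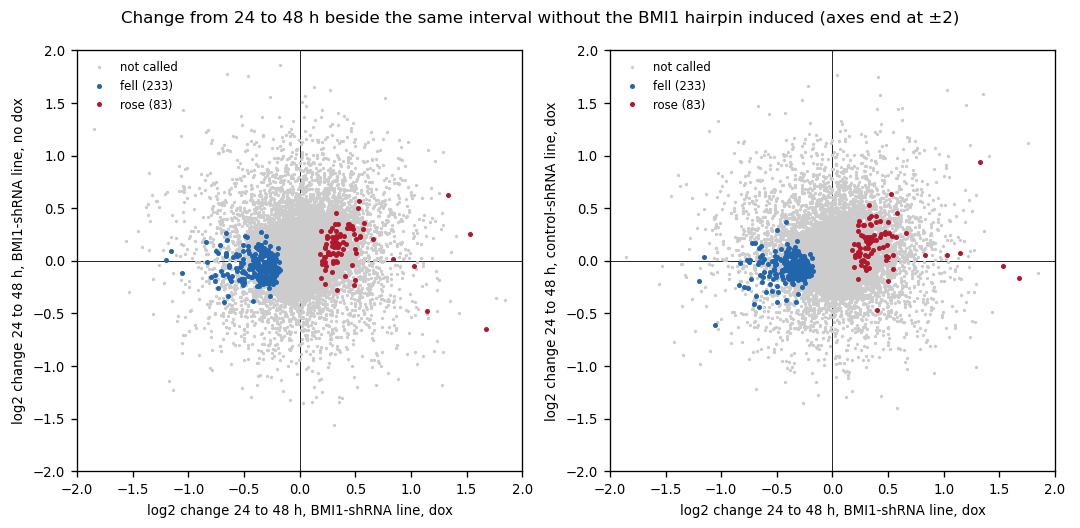
Log2 change from 24 to 48 h in the BMI1-shRNA line with doxycycline (horizontal axes) against the change in that line without doxycycline (left, vertical axis) and in the control-shRNA line with doxycycline (right, vertical axis), with a point for each gene and axes that end at 2 on the log2 scale. The 233 falls (blue) lie close to 0 on the vertical axes, at medians of -0.05 and -0.07, and the 83 rises (red) lie mostly above 0, at 0.14 and 0.16.

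The difference between time courses was tested directly. Against the same line without doxycycline 72 genes differed (0.49%), 60 lower (0.408%) and 12 higher (0.0816%) with doxycycline. Against the control-shRNA line with doxycycline 27 differed (0.184%), 25 lower (0.17%) and 2 higher (0.0136%). Both comparisons contain the dosed arrays that chose the genes above, so their overlap with those calls is not given. The changes in ADA and SFXN1 lay below those in either background, no doxycycline and the control hairpin in that order. On the log2 scale the differences were -0.72 ± 0.11 and -0.65 ± 0.11 for ADA (limma adjusted p = 0.00042 and 0.00183). For SFXN1 they were -0.85 ± 0.11 and -0.68 ± 0.11 (3.33e-05 and 0.00173). The change in CARNMT1 lay below both too (-0.71 ± 0.13 and -0.64 ± 0.13, limma adjusted p = 0.00359 and 0.0221). Neither difference passed for IDH1, LMNB1, HINT3, SOX2, MRPL10, TRIB3 or DDIT4. GPAT3 differed from the control hairpin (-0.77 ± 0.18, limma adjusted p = 0.0484) but not at the threshold from no doxycycline (-0.58 ± 0.18, 0.161). INSIG1 differed from no doxycycline (0.43 ± 0.09, limma adjusted p = 0.0178) and not at the threshold from the control hairpin (0.14 ± 0.09, 0.844). CDH1, E-cadherin, differed most from the control hairpin (-0.99 ± 0.19, limma adjusted p = 0.00727), where it rose from 24 to 48 h (0.61, 0.0178), while with the BMI1 hairpin on it changed by -0.37 and did not pass (0.157). The count against no doxycycline was 46 without dosed 24 h array 2, 47 without undosed 48 h array 2 and 39 without undosed 24 h array 2. The count against the control hairpin was 16 without dosed 48 h array 1, 15 without dosed 24 h array 2, 17 without control 48 h array 3 and 14 without control 24 h array 1.

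Arrays outside this comparison were used to ask whether genes that went on falling were already lower at 32 h. The BMI1-shRNA line at 32 h with doxycycline was set against the same line at 32 h without it, a comparison added after the data were seen that shares no array with the 24 and 48 h groups. It called 323 genes (2.2%), 246 down (1.67%) and 77 up (0.524%), or 213 in all without undosed 32 h array 3. Of the 233 genes that fell from 24 to 48 h, 95 (40.8%) were called lower at 32 h, which is 38.6% of the 246. Of the 83 that rose, 9 (10.8%) were called higher at 32 h, 11.7% of the 77. Among them ADA was lower by 1.12 on the log2 scale (limma adjusted p = 1.96e-13), API5 by 1.30 (2.91e-16), MAPK6 by 1.12 (2.71e-17) and DONSON by 0.73 (7.1e-13), while LMNB1 (-0.52, 0.146) and HINT3 (0.10, 0.946) were not called.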

How the data were processed

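Each array is 1 RNA sample, biotin-labelled and hybridized without pooling. The deposited values are linear intensity (MAS5 signal per probe set, per the submitters' processing notes, version not given in the sources used here). Each array had been scaled by the authors to a trimmed mean of 150.02. No array has a read depth, and 3 arrays per group limit the precision.

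Of 54675 probe sets 62 controls were left out, and those at or above the array median on at least 3 of 42 arrays were retained (35232). The platform table gives 41091 a single symbol, 1801 several and 11721 none. Each gene was its brightest retained single-symbol probe set (14704 genes). Values were transformed as log2(value + 5.4), 5.4 being their 25th percentile. The model had 1 mean for each of 14 groups and used limma (version 3.58.1, R version 4.3.3) with lmFit, contrasts and a trended eBayes. Its tests were two-sided, with 28 residual and 8.62 prior degrees of freedom, and it was tested on simulated data. The 0 h arrays, 3 of which carry conflicting labels, entered only the variance.

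The members and lists were chosen with earlier results of these data known. Named genes are the 12 highest and 12 lowest called bright genes without overlap, the 4 highest and 4 lowest dim ones, the 3 highest and 3 lowest of each other comparison, up to 4 from each of 36 lists, and BMI1 with 19 others always given. The metallothionein list, the 32 h comparison, MAPK6 and DONSON were added after the data were seen.

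Alternatives were pseudocounts of 1 and 18.8, quantile normalization, no filter and a 75th percentile filter, averaging probe sets per gene, testing every probe set, no trend, the compared groups alone, no 0 h arrays, a replicate block and leaving out each array.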

Additional observations from a re-analysis of the deposited data

Results flagged for a closer look

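The change from 24 to 48 h with the BMI1 hairpin on differed from that in another group by a limma test of the difference itself, adjusted over 14704 genes. It differed from the same line without doxycycline for 72 genes and from the control-shRNA line with doxycycline for 27.

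Among named genes, the log2 difference from no doxycycline was negative for MT1E (-1.02), ID3 (-0.94), R3HDM2 (-0.93), RNF144B (-0.93), SFXN1 (-0.85), MT1H (-0.73), ADA (-0.72), CARNMT1 (-0.71), CD83 (-0.62), MT2A (-0.61), ITSN2 (-0.61), VMA21 (-0.57), API5 (-0.50), DONSON (-0.46), MAPK6 (-0.45) and PCBD1 (-0.40). It was positive for SYT5 (2.32), ENC1 (0.72), SLC38A5 (0.61), STS (0.55) and INSIG1 (0.43). R3HDM2 rose without doxycycline (0.56, limma adjusted p = 0.0277) and changed by -0.36 with it, which did not pass. SYT5 rests on a mean signal of 1.67 at 24 h with doxycycline.

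The log2 difference from the control-shRNA line was negative for CDH1 (-0.99), MCAM (-0.79), GPAT3 (-0.77), SFXN1 (-0.68), ADA (-0.65), CARNMT1 (-0.64), PDIA4 (-0.57), ITSN2 (-0.48), MAPK6 (-0.47), DONSON (-0.45), VMA21 (-0.44) and PRIM1 (-0.42), and positive for STS (0.88) and FGF13 (0.40).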

How the results depend on the processing

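Direction held for the named genes that passed, except RNF130, which was at -0.13 with the mean of its probe sets. Of 77 named genes that passed, 18 kept the call under each alternative and each array left out: ADA, API5, CARNMT1, DDIT4, DONSON, GPAT3, ID3, INSIG1, MAPK6, MRPL1, MRPL10, MT1E, MT1H, MT2A, PRIM1, SAT1, STS and TRIB3. A total of 55 lost it under some alternative and 37 without some array. With probe sets averaged per gene, ATF4, ATP5PB, AUTS2, CAPN2, CCDC40, CD109, CD83, DNAJB9, ERN1, FGF13, FKBP4, GDAP1, GFM1, HERPUD1, IDH1, IDH3A, IQSEC1, ITSN2, MCAM, POU2AF1, RFC3, RNA45SN5, RNF144B, SFXN1, SOX2, SPN, SREBF1 and VMA21 were not called. Of 218 called genes with several retained probe sets, all of them had the same sign in 146. SLC38A5 (0.34) was not called without 48 h array 3 (limma adjusted p = 0.081). FGF13 and MCAM kept the call only when 48 h array 1 and 48 h array 3, respectively, were left out (up to 0.283 and 0.184). Of 118 named genes that did not pass, 13 did under some setting.

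Counts moved by over 1.5 times as follows. Fitting only the compared groups, with few residual degrees of freedom by construction, left 69 genes from 24 to 48 h with the BMI1 hairpin on, 0 from 24 to 32 h, 0 from 32 to 48 h, 33 without doxycycline, 10 with the control hairpin, 27 and 1 for the differences from these backgrounds, and 146 at 32 h. The mean of probe sets gave 55 from 32 to 48 h, 12 for the difference from the control hairpin and 208 at 32 h, and all probe sets as features gave 486 at 32 h. Quantile normalization gave 43 for the difference from the control hairpin, the 75th percentile filter gave 252 without doxycycline, and leaving out the trend gave 1 from 24 to 32 h and 17 for the difference from the control hairpin. Without the 0 h arrays there was 1 from 24 to 32 h. For the other moves the cause was not tested.

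Leaving out 1 array at a time gave 180 to 260 genes from 24 to 48 h with the BMI1 hairpin on, 0 to 4 from 24 to 32 h, 38 to 86 from 32 to 48 h, 40 to 78 without doxycycline, 25 to 31 with the control hairpin, 39 to 66 and 14 to 28 for the differences from these backgrounds, and 213 to 327 at 32 h. The labels give every group the numbers 1 to 3. Deviations of same-numbered 24 and 48 h arrays correlated at -0.022, -0.008 and 0.038, so no deviation shared by number was seen. With 3 arrays per group this cannot tell whether same-numbered arrays came from the same culture or run. With the replicate block the counts were 309, 3, 89, 137, 48, 70, 27 and 307 in the same order, with little change.

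Signal limits the dim genes: 12 rises and 12 falls lay below the median signal. Tests assume that a group of 3 arrays varies like the other groups.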
